A study of Mus musculus with 40 samples.

Results

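The lysyl oxidase family is described here in mouse embryonic fibroblasts (MEFs) that carried or lacked Sall2, with and without doxorubicin. The members were taken by gene symbol from the table of read counts. All 5 of them, Lox, Loxl1, Loxl2, Loxl3 and Loxl4, were among its 24062 genes. The MEFs were primary cells from embryos at 13.5 days post coitum, at passage 3, on a background labelled Mixed C57BL/6J-129P2OlaHsd, and had both copies (WT), 1 copy (Het) or no intact copy (KO) of Sall2, which encodes a transcription factor with zinc fingers. Control cells received no drug, and treated cells received 1 µM doxorubicin, a drug that damages DNA, for 16 h. RNA depleted of ribosomal RNA was sequenced from 1 WT, 1 Het and 3 KO cultures without treatment, and from 1 WT, 1 Het and 2 KO cultures with doxorubicin. A further column of KO with doxorubicin, labelled as replicate 3, held the same count as replicate 2 in all 24062 rows, so the pair was counted as 1 library and 9 libraries were used. WT and Het therefore had no replicate within a treatment, and a spread between embryos of the same genotype could be measured only in KO. The Sall2 KO allele was made in 129P2 embryonic stem cells, so the KO cells also carry 129P2 DNA around Sall2 on chromosome 14, where Loxl2 lies.

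Lysyl oxidases are secreted, copper-dependent enzymes that oxidise lysines of collagen and elastin in the extracellular matrix, from which covalent crosslinks form. Lox and Loxl1 are made as proenzymes with a propeptide that is cut off outside the cell, while Loxl2, Loxl3 and Loxl4 carry scavenger receptor cysteine-rich domains before the catalytic domain. Fibroblasts are a main source of these enzymes in connective tissue.

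The genes lie on different chromosomes (GENCODE annotation of GRCm38, the assembly of mm10). Loxl1 is at chr9:58287738-58313186 on the minus strand, Loxl2 at chr14:69609068-69695834 on the plus strand, Loxl3 at chr6:83034173-83052562 on the plus strand and Loxl4 at chr19:42593982-42612813 on the minus strand. Loxl2 starts 17.3 Mb beyond the end of Sall2, which is at chr14:52311172-52328762. The shared core of the family is the copper-binding site of the catalytic domain, shown here because it is what makes these 5 genes a family. The coding bases of the site and of 45 bases on each side are given 5′ to 3′ from the GENCODE transcript with the longest coding sequence of each gene, with the 33 bases of the site in capitals. In each of the 4 genes shown the stretch is joined from 2 coding exons, and an intron lies between its genomic ends at chr9:58293675-58294426 for Loxl1, chr14:69682271-69689082 for Loxl2, chr6:83049950-83050170 for Loxl3 and chr19:42598762-42599944 for Loxl4.
Loxl1: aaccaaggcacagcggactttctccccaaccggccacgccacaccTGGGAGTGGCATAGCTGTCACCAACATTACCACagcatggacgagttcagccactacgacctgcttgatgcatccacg
Loxl2: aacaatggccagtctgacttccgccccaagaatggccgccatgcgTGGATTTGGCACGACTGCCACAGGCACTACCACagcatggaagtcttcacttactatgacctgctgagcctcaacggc
Loxl3: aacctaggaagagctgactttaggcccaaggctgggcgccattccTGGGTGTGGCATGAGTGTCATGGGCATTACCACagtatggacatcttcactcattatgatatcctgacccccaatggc
Loxl4: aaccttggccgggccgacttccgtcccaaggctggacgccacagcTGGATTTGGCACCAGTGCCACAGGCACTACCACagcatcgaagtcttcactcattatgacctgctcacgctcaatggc

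Within the site, 20 of the 33 bases were the same in all 4 sequences. Loxl2 and Loxl4 were the most alike there, with 31 of 33 bases identical, and Loxl1 and Loxl4 the least, with 21. Over the whole printed stretch of 123 bases, Loxl2 and Loxl4 shared 101 and Loxl1 shared between 74 and 76 with each of the others. The longest run of identical bases between any pair of the 5 members' transcripts was 32, well under the read length of 150 bases, so a read could not lie whole within such a run. Some exons overlap other genes. Those of Loxl3 overlap Htra2 on the opposite strand, and those of Loxl2 overlap the microRNA gene Mir6950. The strand setting of the counting was not given in the sources used here, so reads from these overlaps are uncertain.

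Library totals lay between 15560728 and 24122414 counts, and the members had between 778 counts (Loxl4, KO control 3) and 150706 counts (Lox, KO control 1) per library. Levels are given as CPM, the counts divided by the TMM-scaled size of the library. Sall2, the targeted gene, was at 36.9 CPM in WT control, 24.3 in Het control and 19.5, 23.8 and 19.1 in the KO control libraries, and treated WT, Het, KO 1 and KO 2 were at 9.34, 8.33, 4.23 and 3.71 CPM. It was lowest in KO in both treatments but was not absent. The summed fibroblast markers were abundant in every library, while the Het libraries and KO control 3 stood apart from the rest. Their fibroblast marker sum over 10 of 10 genes was between 16555 and 23468 CPM, against 47524 to 94274 CPM in the other 6. The matrix genes Fn1, Col1a1 and Col1a2 were its largest parts, at 45019, 23525 and 14474 CPM in WT control. Lum was at 4.37 CPM or less in the 3 libraries, and Dcn overlapped, at 68.1 CPM in KO control 3 and 65.25 in WT control. The macrophage marker sum of the 3 libraries over 8 of 8 genes was between 431 and 664 CPM, against 91.0 to 166. Of the macrophage list, Emr1 and Ptprc were at 59.2 to 161 and 18.7 to 41.2 CPM in those 3 libraries and at 4.85 to 13.1 and 1.42 to 4.79 CPM in the others. Not every gene of the list moved this way. Mrc1 was lowest in those 3 libraries, at 0.290, 0.270 and 0.559 CPM against 0.836 to 8.90 in the others, Csf1r overlapped, at 22.7 CPM in KO control 3 and 28.1 in WT control, and Cd163 was at 0.315 CPM or less in all 9. Isg15, an interferon-induced gene chosen after its values were seen, was at 211 to 494 CPM in the 3 libraries and at 1.42 to 56.9 CPM in the others. The part of these differences in the results below was not tested, and in bulk samples fewer cells of a type and less RNA per cell cannot be told apart.

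Per kilobase of exon, Lox was the most abundant member. Its level lay between 293 and 1585 CPM per kilobase, with a median of 1201. Loxl1 ranged from 65.1 to 341 with a median of 233, Loxl2 from 53.6 to 342 with a median of 200, Loxl3 from 32.7 to 96.8 with a median of 80.2 and Loxl4 from 8.31 to 62.6 with a median of 32.5. The order Lox, then Loxl1 and Loxl2, then Loxl3, then Loxl4 held in 9 of 9 libraries, while Loxl1 and Loxl2, neighbours in this order, could not be ranked. Loxl1 was above Loxl2 in 5 of 9 libraries. Of the summed level of the family per kilobase, Lox made up between 56.9% and 72.1%. Together the 5 genes took between 0.256% and 0.967% of all counts in a library.

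Lox, the founding member, on chromosome 18, is a main crosslinker of fibrillar collagen and elastin. It was at 5737 CPM in WT control, 1658 in Het and 7574, 5960 and 1398 in KO 1, 2 and 3. Treated WT was at 6358 CPM, treated Het at 1853, and treated KO 1 and KO 2 at 7436 and 5463. The KO libraries covered the WT value in both treatments.

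Loxl1, which is known for its role in elastic fibre upkeep, was at 876 CPM in WT control, 264 in Het and 1038, 905 and 215 in KO 1, 2 and 3. Treated WT was at 768 CPM, treated Het at 336, and treated KO 1 and KO 2 at 1124 and 716. It followed Lox closely from library to library.

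Loxl2, which acts on collagen IV of basement membranes and has been linked to epithelial-mesenchymal transition, was at 1449 CPM in WT control, 517 in Het and 1106, 971 and 290 in KO 1, 2 and 3. Treated WT was at 1850 CPM, treated Het at 733, and treated KO 1 and KO 2 at 1361 and 1081. Every KO library lay below the WT library of its treatment.

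Loxl3, a member needed for palate and cartilage development, was at 392 CPM in WT control, 158 in Het and 334, 446 and 165 in KO 1, 2 and 3. Treated WT was at 369 CPM, treated Het at 151, and treated KO 1 and KO 2 at 382 and 379. Under doxorubicin the WT and KO libraries lay close together, and the KO libraries of control covered the WT value.

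Loxl4, the least abundant member, was at 151 CPM in WT control, 37.4 in Het and 90.2, 137 and 35.0 in KO 1, 2 and 3. Treated WT was at 264 CPM, treated Het at 97.7, and treated KO 1 and KO 2 at 220 and 225. Each embryo had more of it with the drug than without.

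**Figure D1:**
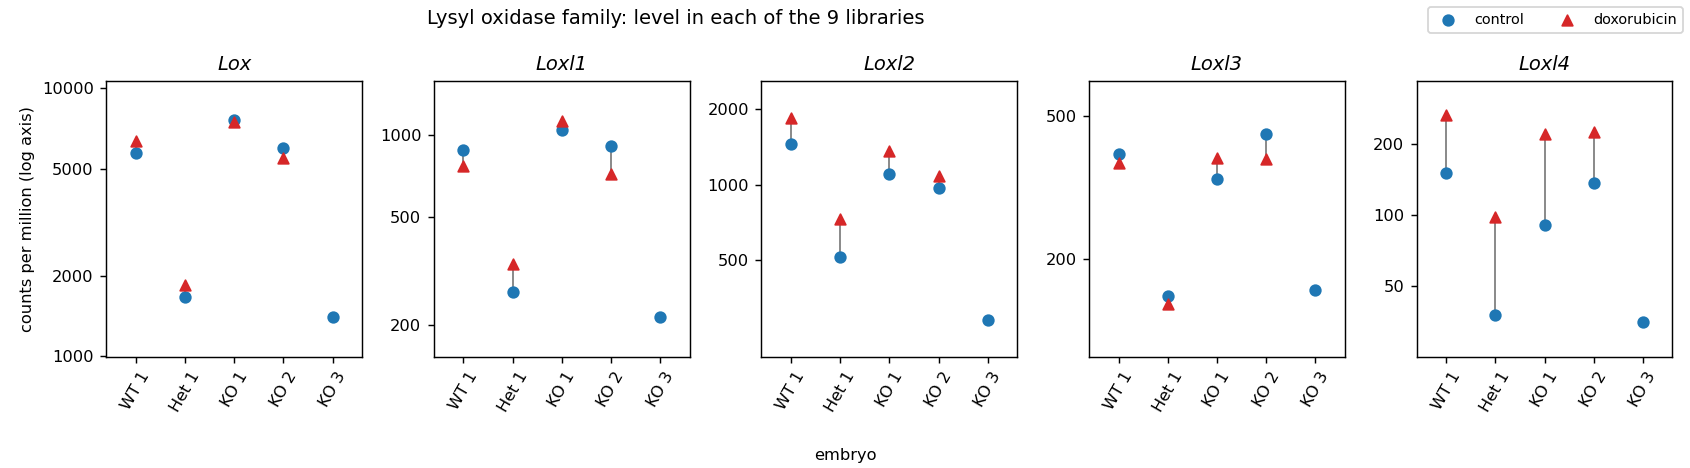
Level of each lysyl oxidase in CPM (counts over TMM-scaled library size, log axis) in each embryo's library, with blue circles for control, red triangles for doxorubicin and a grey line joining the 2 libraries of an embryo. In every panel Het and KO 3 are the lowest circles and Het is the lowest triangle, and the triangles of Loxl2 and Loxl4 lie above the circles in all 4 pairs.

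All 5 members were lower in Het and in KO control 3 than in the other libraries of the same treatment. In control these were the 2 lowest libraries for 5 of 5 members, and with doxorubicin Het was the lowest for 5 of 5, a pattern that 26.8% of the 14883 genes tested showed. Relative to WT control, the level of Lox was 0.289 in Het and 0.244 in KO 3, while that of Loxl3 was 0.403 and 0.420, so the drop was smaller for Loxl3 than for Lox. On the log2 scale the differences from WT control ranged from -2.01 to -1.31 in Het and from -2.32 to -1.25 in KO 3. The median over all genes was 0.02 in Het and 0 in KO 3. In KO 1 and KO 2, the differences of the members lay between -0.74 and 0.40. These are single libraries, and the fibroblast marker sum was low in the same 3 libraries.

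Doxorubicin was compared with control over the 9 libraries with genotype as a covariate. Loxl4 had the highest log2 fold change of the family, 1.23 (SE 0.343, edgeR FDR 0.0144, n = 4 treated and 5 control), short of the threshold of an FDR under 0.01. The labels number the cultures alike in both treatments, and with these pairs as a block the log2 fold change of Loxl4 was 1.04 (SE 0.139, edgeR FDR 0.000311), past the threshold. Loxl4 was higher with doxorubicin in 4 of 4 pairs, by 0.80 in WT, 1.38 in Het, 1.28 in KO 1 and 0.71 in KO 2 on the log2 scale, and its 4 treated libraries did overlap with the 5 control libraries, since treated Het lay below WT control and KO control 2. In the main comparison 0 of 5 members passed, against 42.1% of all genes tested. An unadjusted p under 0.05 in the edgeR test was reached by 1 of 5 (Loxl4) and by 9149 of the 14883 genes tested. With the block 1 of 5 passed, against 59.4% of all genes, and with DESeq2 1 of 5 passed, against 51.8% of all genes. The treated library deposited as KO 2 and KO 3 was taken as KO 2, so KO control 3 was given no treated partner. KO control 3 thus has no weight in the difference when the block is used. Without that library and without the block Loxl4 also passed, at 1.03 (edgeR FDR 0.000238). A share of 1 in 5 is below the share of all genes in each of these fits. With an RUVg factor of unwanted variation as a covariate, 4 of 5 passed as higher, all but Loxl3, against 63.8% of all genes. The control genes of that factor were all but the 5000 of smallest p in this same comparison. Genes with an unadjusted p under 0.05 were therefore among the controls, and how far the factor took up the response to the drug was not tested.

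Loxl2 was also higher in 4 of 4 pairs, by 0.35 in WT, 0.50 in Het, 0.30 in KO 1 and 0.15 in KO 2 on the log2 scale. Its log2 fold change was 0.54 (SE 0.372, edgeR FDR 0.249), and 0.33 (SE 0.0959, edgeR FDR 0.0159) with the block, neither of which passed, while with the RUVg factor it was 1.03 and passed (edgeR FDR 0.000101). Being higher in 4 of 4 pairs was seen in 38.7% of the genes tested.

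For the other members the direction differed between pairs and fits. With TMM the pair differences of Lox were 0.15 in WT, 0.16 in Het, -0.03 in KO 1 and -0.13 in KO 2, while its share of all counts rose in each pair. Those of Loxl1 lay between -0.34 and 0.35, and those of Loxl3 between -0.23 and 0.19, with 1 of 4 pairs higher. With the block, the log2 fold changes were 0.04 for Lox (SE 0.101, edgeR FDR 0.742), -0.02 for Loxl1 (SE 0.128, edgeR FDR 0.909) and -0.05 for Loxl3 (SE 0.100, edgeR FDR 0.677). Without the block they were 0.27, 0.23 and 0.12, and without the block and without KO control 3 they were 0.04, -0.00095 and -0.06. With the RUVg factor Lox was at 0.91 (edgeR FDR 0.00177) and Loxl1 at 0.84 (edgeR FDR 0.000713), both higher, and Loxl3 was at 0.43 (edgeR FDR 0.0164). The values also move with the scaling. The median over all genes of the mean pair difference was 0.03 with TMM and 0.18 without it, and the mean pair difference of Loxl4 was 1.05 and 1.19, that of Lox 0.04 and 0.18. Those of Loxl1 and Loxl3 changed sign, from -0.02 to 0.13 and from -0.05 to 0.10.

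**Figure D2:**
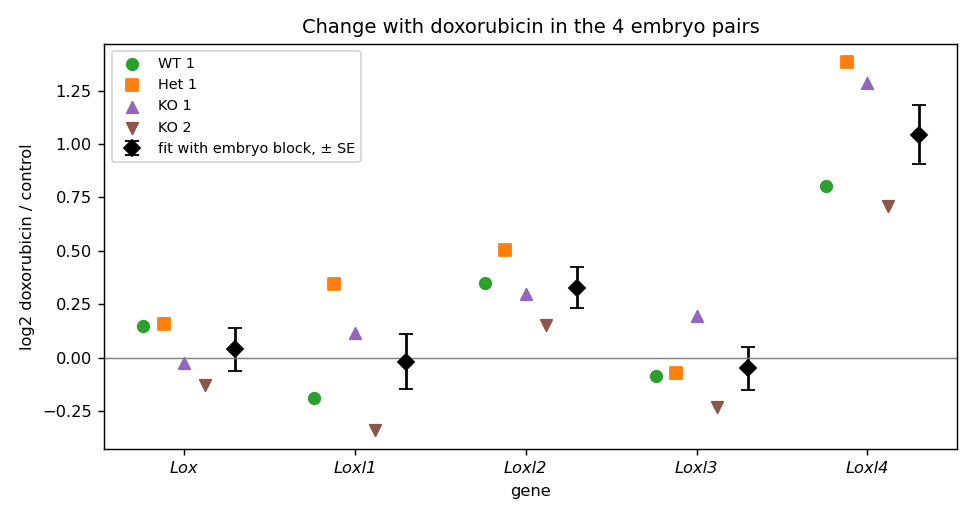
Log2 ratio of doxorubicin to control for each lysyl oxidase in the 4 embryos with both treatments (coloured symbols), with the estimate of the edgeR fit with an embryo block and its standard error (black diamonds). All symbols of Loxl4 lie between 0.71 and 1.38 and those of Loxl2 between 0.15 and 0.50, while those of Lox, Loxl1 and Loxl3 lie on both sides of 0.

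KO was compared with WT within each treatment. Loxl2 was lower in KO in 3 of 3 control libraries, at 0.764, 0.670 and 0.200 of the WT level in KO 1, 2 and 3, and in 2 of 2 doxorubicin libraries, at 0.736 and 0.584 in KO 1 and KO 2. Loxl4 was likewise lower in every KO library, at 0.598, 0.908 and 0.232 of WT in control and at 0.834 and 0.852 with doxorubicin. Both genes are among those that the study listed as changed on these libraries, so the direction is not independent evidence. Having every KO library below WT in its treatment was seen in 6.64% of the 14883 genes and in these 2 of the 5 members. Lox, Loxl1 and Loxl3 had KO libraries on both sides of WT in control.

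In control, KO against WT gave a log2 fold change of -0.86 for Loxl2 (SE 0.876, edgeR FDR 1.00) and -0.77 for Loxl4 (SE 0.741, edgeR FDR 1.00), and those of Lox, Loxl1 and Loxl3 lay between -0.30 and -0.19. None of the 5 members passed, nor had an unadjusted p under 0.05, where 0% of the 14470 genes tested did and 10 reached an unadjusted p under 0.05. DESeq2 called 0 members. With RUVg, the normalization named in the study's methods, followed by edgeR's exact test, 1 of 5 members passed, Loxl2, at a log2 fold change of -0.81. There the factor was removed from the counts before the spread between libraries was estimated. That call therefore does not measure the spread between embryos. KO 3 set much of the size. Without it the log2 fold change of Loxl2 was -0.46 and that of Loxl4 -0.39, and those of Lox, Loxl1 and Loxl3 turned to 0.26, 0.17 and 0.01.

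With doxorubicin the log2 fold change of Loxl2 was -0.61 (SE 0.296, unadjusted p = 0.0401, edgeR FDR 1), that of Loxl4 -0.25 (SE 0.236, edgeR FDR 1), and those of Lox, Loxl3 and Loxl1 were 0.01, 0.04 and 0.25. None of the 5 members passed, against 0.197% of the 15256 genes tested. Loxl2 was the only member with an unadjusted p under 0.05, which 433 of all genes tested reached. DESeq2 called 0 members. The 2 KO libraries gave -0.44 and -0.77 for Loxl2 when taken singly, while with KO 2 alone Lox and Loxl1 were at -0.22 and -0.10.

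Over all 9 libraries, the slope per Sall2 dosage (KO 0, Het 0.5, WT 1) was 0.58 for Loxl2 (SE 0.533, edgeR FDR 1) and 0.34 for Loxl4 (SE 0.558, edgeR FDR 1) in log2 units, and between -0.17 and -0.03 for the others. Without the WT control library the slope was 0.17 for Loxl2 and -0.31 for Loxl4. None of the 5 members passed or had an unadjusted p under 0.05, where 0% of 16656 genes did and 48 reached an unadjusted p under 0.05. The difference between KO and WT in the response to doxorubicin was between 0.22 and 0.54 for the 5 members (SE between 0.848 and 1.56, edgeR FDR 1 for each), and again none passed or had an unadjusted p under 0.05, where 0% of 15905 genes did and 41 reached an unadjusted p under 0.05. DESeq2 called 0 members in both. With 1 WT library per treatment the standard errors exceed the estimates for all but Loxl2 under doxorubicin and in the slope, and for Loxl4 in control and under doxorubicin. The targeted gene Sall2 did not pass in these comparisons either. Its log2 fold change in KO against WT was -0.81 in control and -1.24 with doxorubicin, and its slope was 1.01. A member that did not pass is thus not shown to be unchanged.

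Since all 5 genes were low in the same libraries, each was also set against Lox within its library, where scaling cancels. This comparison was chosen after the values were seen. Reads of Loxl2 per Lox read were 0.253 in WT control, 0.312 in Het and 0.146, 0.163 and 0.207 in KO 1, 2 and 3. With doxorubicin the values for WT, Het, KO 1 and KO 2 were 0.291, 0.396, 0.183 and 0.198. The KO libraries did not overlap with WT and Het in either treatment, and KO 3 and Het, which had the lowest levels of both genes, fell on opposite sides. Of the 14882 other genes, 0.168% showed this separation from Lox, and among the 4 other members Loxl2 alone did. In CPM, which Het lowers, 0.779% of genes had every KO library below both WT and Het, and 0 of 5 members did. The mean in KO was 0.172 ± 0.0316 (SD, n = 3) in control and 0.190 ± 0.0105 (SD, n = 2) with doxorubicin. A ratio shows unequal change between the genes and not which of them changed.

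Reads of Loxl4 per Lox read were 0.0263 in WT control, 0.0226 in Het and 0.0119, 0.0230 and 0.0251 in KO 1, 2 and 3, so the genotypes overlapped. In treated WT, Het, KO 1 and KO 2 they were 0.0415, 0.0527, 0.0296 and 0.0411, and each of these 4 lay above all 5 control values. Against Lox the treated and control libraries of Loxl4 thus did not overlap, although in CPM they did. How many of all genes show such a separation was not counted, so it is not known whether it is unusual. Loxl1 had the smallest fold between its highest and lowest ratio, between 0.121 and 0.181 reads per Lox read over the 9 libraries, and Loxl3 ranged from 0.0441 to 0.118.

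**Figure D3:**
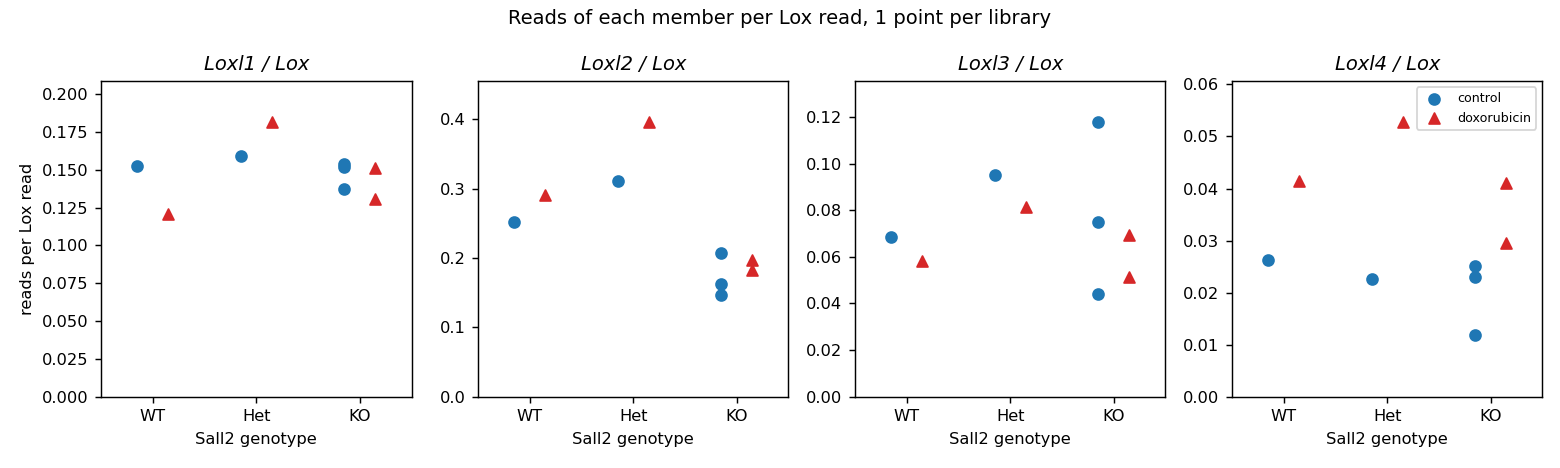
Reads of Loxl1, Loxl2, Loxl3 and Loxl4 per Lox read (axes start at 0) by Sall2 genotype, with 1 point per library, blue circles for control and red triangles for doxorubicin. For Loxl2 the 5 KO points lie between 0.146 and 0.207, below the WT and Het points at 0.253 to 0.396, and for Loxl4 all triangles lie above all circles.

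Loxl2 lies in the segment of chromosome 14 that the KO cells carry from 129P2, so the effects of Sall2 and of that segment cannot be told apart between genotypes. Near genes tested in both treatments were examined on each side. Nefm, Nefl, Stc1 and Slc25a37 lie before it and R3hcc1, Chmp7, Tnfrsf10b, Rhobtb2 and Egr3 after it. Of these 9, 0 passed an edgeR FDR under 0.01 between KO and WT in control, where 0 had an unadjusted p under 0.05, or with doxorubicin, where 1, Chmp7 (higher), had an unadjusted p under 0.05. Tnfrsf10b, a death receptor gene, was at 162 CPM in WT control and at 169, 165 and 81.1 CPM in KO 1, 2 and 3. R3hcc1, which begins just after Loxl2 ends, was at 36.9 CPM in WT control and at 38.9, 38.1 and 52.7 CPM in KO 1, 2 and 3. Every KO library lay below WT in its treatment for Nefm and Rhobtb2, and 0 of the 9 showed the separation from WT and Het against Lox that Loxl2 showed.

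The members' patterns were compared with those of 11130 genes with a mean of at least 5 CPM, by Pearson's r of log2 CPM over the 9 libraries. Among themselves the members had r between 0.80 and 0.99, highest for Lox with Loxl1. Over the 6 libraries other than the Het libraries and KO control 3, a choice made after the values were seen, r was 0.83 for Lox with Loxl1, 0.57 for Loxl2 with Loxl4 and between -0.55 and 0.17 for the other pairs of genes. The likeness below was likewise taken over all 9 libraries, which include these 3 that stand apart. The genes most like Lox were Ckap4 (r = 0.998), Elovl5 and Tpbg, those most like Loxl1 included Cd248 (r = 0.996) and Dirc2, and those most like Loxl3 included Sulf1 (r = 0.994) and Itgbl1. Loxl4 was most like Man2b2 (r = 0.994), Fkbp9 and Gpr125. Loxl2 had lower values at the top of its list, with Pcdh1 (r = 0.979), Mmp14 and Eif2ak3. After the mean of each treatment was subtracted, the most alike were Ckap4, Vcp and Lpcat3 for Lox, Myadm, Pla2g15 and Gaa for Loxl1, Mmp14, Scfd2 and Ctsd for Loxl2, Igsf10, Sulf1 and Hcn2 for Loxl3, and Itga11, Ltbp2 and Ank for Loxl4. Mmp14, a membrane-bound collagenase that is also on chromosome 14, had r = 0.992 with Loxl2 on this scale.

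The other genes of matrix crosslinking were counted in the comparison of doxorubicin with control, where 21.9% of all genes passed as higher and 20.2% as lower, with a median log2 fold change of -0.02. With the block these were 30.6% and 28.8%, with a median of 0.03. The substrates of the family are fibrillar collagens and elastin. Of 9 tested, 0 passed in the main comparison and 2 were lower with the block, and their median log2 fold change was -0.19 and -0.40. Col1a1 and Col1a2, the chains of type I collagen, had log2 fold changes of -0.16 (SE 0.541, edgeR FDR 0.821) and 0.02 (SE 0.513, edgeR FDR 0.981). Without the Het libraries and KO control 3, 7 of 9 were lower, against 32.4% of all genes.

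Another list holds enzymes that modify and fold collagen before it leaves the cell. Of 12 tested, 0 passed in the main comparison, and 8 were higher and 0 lower with the block, with a median log2 fold change of 0.63 and 0.47. Among the 8 were Plod1 and Plod2, which hydroxylate collagen lysines, P4ha1, P4ha2 and P4hb, of the prolyl 4-hydroxylases, and Lepre1 and Crtap, of the prolyl 3-hydroxylase complex. Serpinh1, the collagen chaperone, had a log2 fold change of 0.34 (SE 0.361, edgeR FDR 0.451) and P4hb one of 0.58 (SE 0.325, edgeR FDR 0.162) without the block.

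Genes for processing and binding of pro-LOX were mixed. Of 9 tested, 1 was higher and 0 lower, and with the block 2 were higher and 2 lower. The gene that rose was Tll2, a protease related to Bmp1, with 1 to 5 counts in the control libraries and 83 to 99 counts in the treated ones (edgeR FDR 2.58e-05). Bmp1 itself, the protease that cuts off the propeptide of Lox, had a log2 fold change of 0.13 (SE 0.178, edgeR FDR 0.562). With the block, Pcolce2 was also higher, while Thbs1 and Tll1 were lower.

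For elastic fibre assembly 0 of 13 passed, and with the block 3 were higher (Efemp2, Fbln5 and Mfap4) and 2 lower (Fbn1 and Fbn2). Fbn1, the main microfibril protein, had a log2 fold change of -0.85 (SE 0.534, edgeR FDR 0.206), and Ltbp2 one of -0.07 (SE 0.321, edgeR FDR 0.871). Of 4 genes of copper supply, 1 was higher and 0 lower. This was Slc31a1, the copper importer, with a log2 fold change of 0.95 (SE 0.161, edgeR FDR 0.00124), at 73.8 to 116 CPM in control and 142 to 196 CPM with doxorubicin. With the block 2 were higher, Slc31a1 and the copper chaperone Atox1, and 1 was lower, Atp7a, the transporter that loads copper onto secreted enzymes.

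Of the other crosslinking enzymes, 3 of 6 were tested and 0 passed, with Pxdn, which crosslinks collagen IV, and the transglutaminase Tgm2 at -0.33 and 0.42 on the log2 scale. Pxdn was lower with the block. The transcription factors of epithelial-mesenchymal transition fell together. Of 6 tested, 5 were lower and 0 higher, with a median log2 fold change of -1.45, and with the block 6 were lower. The log2 fold change was -1.67 for Snai1 (SE 0.228, edgeR FDR 0.000397), -1.67 for Snai2 (SE 0.182, edgeR FDR 0.000133), -1.62 for Zeb1 (SE 0.187, edgeR FDR 0.000175) and -1.28 for Zeb2 (SE 0.128, edgeR FDR 9.06e-05). Over the same contrast Loxl2, which has been linked to Snai1 in epithelial cells, was higher in 4 of 4 pairs, as were 38.7% of all genes. It did not pass in the main comparison or with the block.

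**Figure D4:**
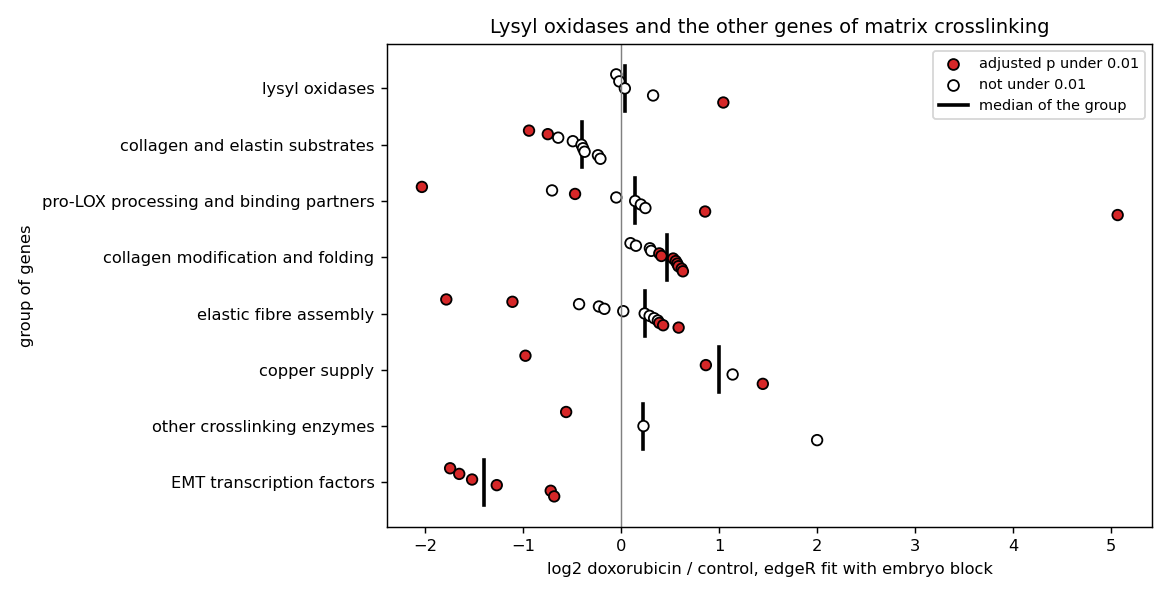
Log2 fold change of doxorubicin against control in the edgeR fit with an embryo block for each tested gene of the lysyl oxidases and of 7 groups of genes around matrix crosslinking, filled in red where the adjusted p was under 0.01, with a bar at the median of each group. Among the lysyl oxidases only Loxl4 is filled, 8 of 12 collagen modification genes are filled on the right, and all 6 EMT transcription factors are filled on the left.

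Among the lists around crosslinking, the low level in Het and KO control 3 was seen in 13 of 13 genes of elastic fibre assembly, 12 of 12 of collagen modification, 8 of 9 of pro-LOX processing 7 of 9 substrates, 2 of 4 genes of copper supply, 1 of 3 other crosslinking enzymes and 2 of 6 EMT transcription factors, beside the 26.8% of all genes given above. It was also seen in 9 of 10 fibroblast markers. Against WT control the median log2 ratio of the substrates was -1.88 in Het and -2.12 in KO 3, and that of copper supply 0.55 and 0.07.

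The calls with doxorubicin in the marker lists of cell types were as follows. Of all genes, 21.9% passed as higher and 20.2% as lower, and with the block 30.6% and 28.8%. Of 10 fibroblast markers, 0 were higher and 1, Pdgfrb, was lower. Of 7 macrophage markers tested, Cd68 was higher and Csf1r lower. Of 4 endothelial markers 1 was higher, of 4 epithelial markers 2 were higher and 1 lower, of 5 smooth muscle and of 3 skeletal muscle markers 0 passed, and of 3 glia markers 1 was higher and 1 lower. With the block, fibroblast markers had 1 higher (Thy1) and 2 lower (Pdgfra and Pdgfrb), macrophage markers 2 higher (Emr1 and Cd68) and 1 lower (Csf1r), endothelial markers 3 higher, epithelial markers 3 higher and 1 lower, smooth muscle markers 1 higher (Cnn1) and 1 lower (Myh11), skeletal muscle markers 2 lower (Actc1 and Acta1) and glia markers 1 in each direction. The summed epithelial markers were at 18.5 CPM or less in every library. Cdkn1a, Mdm2 and Ccng1, targets of p53, had log2 fold changes of -0.64 (edgeR FDR 0.0144), -0.22 and -0.16 and did not pass in the main comparison. With the block Cdkn1a was at -0.70 and passed as lower (edgeR FDR 0.000878), and Mdm2 and Ccng1, at 0.06 and -0.09, did not pass. Sall2 fell by 2.09 (SE 0.204, edgeR FDR 7.96e-05).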

How the data were processed

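RNA-Seq reads were counted per gene by the authors, who pooled the 4 FASTQ files of a sample, aligned reads to mm10 with HISAT2 2.1.0 (per the labels) and counted with HTSeq; the deposited values are whole-number counts without normalization. The KO library with doxorubicin that was deposited under 2 names was used as 1. No per-sample column was left unmapped. Library totals, between 15560728 and 24122414 counts, set the counting precision, and since there were no molecular identifiers, repeated reads of 1 molecule could not be removed. The labels do not name the embryos, so p-values measure the spread between these libraries.

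Differential expression used edgeR 4.0.16 in R 4.3.3 (TMM scaling, filterByExpr, two-sided quasi-likelihood test, Benjamini-Hochberg adjustment over all genes tested, FDR under 0.01). Doxorubicin was compared with control over 9 libraries with genotype as covariate, KO with WT within each treatment, the slope on genotype over 9 libraries, and the interaction over the WT and KO libraries. Log2 CPM used a prior count of 2. The tests were tried on simulated counts with less spread between libraries than these data have, which does not show how they perform here. Numbers shared by the labels across treatments were taken as pairs. The deviations of the 4 pairs from the treatment means correlated at 0.521, 0.742, 0.620 and 0.525 over 14883 genes, and 4 of 4 pairs had the same sex by Xist and Y-linked genes. Exon lengths and sequences are from GENCODE vM21 (GRCm38).

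Alternatives were DESeq2 1.42.0 and its size factors, other filters on low counts, an FDR of 0.05, edgeR's exact test, RUVg with 1 factor (written anew, with all but the 5000 genes of smallest p as controls), all 9 libraries in 1 fit, the replicate block, KO libraries only, leaving out libraries, counting the identical libraries as 2 and a prior count of 0.5. Chosen after seeing the data were CPM without TMM factors, the block and left-out libraries for the lists, and correlations without those libraries. The members, the 7 lists of crosslinking genes and the 7 marker lists were chosen with earlier results of these data known. Named genes were the members, Sall2, Cdkn1a, Mdm2 and Ccng1, up to 4 called genes with the largest change per list (or the 2 of highest mean CPM where none was called), the 5 tested neighbours on each side of Loxl2 and the 3 most alike genes of each member. A few genes that these rules select are not reported here. Other genes, such as Isg15, Emr1, Bmp1 and those called with the block, were named after their values were seen.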

Additional observations from a re-analysis of the deposited data

Results flagged for a closer look

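For Lox, the difference between doxorubicin and control in TMM-scaled CPM had opposite signs in different genotypes. The signs depend on the scaling. As a share of all counts, Lox was higher with doxorubicin in each pair. It rose from 0.6355% to 0.6835% in KO 1 and from 0.5012% to 0.5517% in KO 2. With TMM the difference was 0.16 on the log2 scale in the Het pair and 0.15 in the WT pair, and -0.03 and -0.13 in the pairs of KO 1 and KO 2. Between WT and KO the difference did not pass in the interaction test (edgeR FDR 1), and between Het and KO it was not tested. For Loxl1, the Het pair gave 0.35 and the WT pair -0.19, with 1 pair of each genotype, and this difference was not tested. No group held the 4 samples needed to look for a library far from the others of its group.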

How the results depend on the processing

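With 1 WT library per treatment, the comparisons of KO with WT take their spread from the KO libraries alone. Of 360 alternative values of single members, 31 had another sign than the main value, and none of these 31 was called. The cause was not tested.

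For doxorubicin against control, 6266 genes passed in the main comparison, 9493 with an RUVg factor as covariate, 9923 with KO control 3 and both Het libraries left out, 1911 in KO libraries only, and between 4102 (without KO doxorubicin 2) and 8971 with 1 library left out, with 4177 without WT doxorubicin. Of the 5 members, 0 passed in the main comparison. Loxl4 passed alone, so 1 did, with DESeq2, at an FDR under 0.05, with the identical libraries counted as 2, with those 3 libraries left out and with the replicate block, and with 1 library left out the count was between 0 and 1 (1 without KO control 2 or without KO control 3). With the RUVg factor 4 passed, Lox at 0.91, Loxl1 at 0.84, Loxl2 at 1.03 and Loxl4 at 1.70 on the log2 scale. As given above, genes with an unadjusted p under 0.05 in the main comparison were among that factor's control genes. The FDR of Loxl4 over all alternatives was between 3.91e-06 and 0.104. With the 3 libraries left out, Lox was at -0.0059, Loxl1 at -0.126 and Loxl3 at -0.0569. With the replicate block, which pairs libraries by number, 8840 genes passed, Loxl1 was at -0.0174 and Loxl3 at -0.0489. With 1 library left out, Loxl1 lay between -0.00095 and 0.398 and Loxl3 between -0.0561 and 0.266.

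For KO against WT in control, RUVg with the exact test gave 125 genes and 1 member (Loxl2), and leaving out a KO library gave between 0 and 47 genes (47 without KO 1 and 41 without KO 2). The ranges with a KO library left out were -0.63 to 0.26 for Lox, -0.63 to 0.17 for Loxl1 and -0.63 to 0.0106 for Loxl3, each above 0 only without KO control 3, -1.19 to -0.46 for Loxl2 and -1.25 to -0.39 for Loxl4. With doxorubicin, 30 genes passed in the main comparison, 5 with DESeq2 size factors, 5 with the DESeq2 test, 4 with at least 5 counts in at least 2 libraries, 46 at an FDR under 0.05, and 0 with the identical libraries counted as 2 or with all 9 libraries in 1 fit. Lox was at -0.061 with the identical libraries counted as 2, and without KO doxorubicin 1 Lox was at -0.22 and Loxl1 at -0.10. No member passed in any of these.

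For the slope on genotype, 2 genes passed with DESeq2, 1 with the RUVg factor and 3 with the 3 libraries left out, and no member did. With 1 library left out, the slopes ranged from -0.64 to 0.14 for Lox, -0.81 to 0.0652 for Loxl1, -0.51 to 0.16 for Loxl3, 0.17 to 0.78 for Loxl2 and -0.31 to 0.62 for Loxl4, those of Loxl2 and Loxl4 lowest without WT control. For the interaction, the replicate block gave 8 genes and no member, with Lox at -0.23 and Loxl2 at -0.13, and with 1 library left out Lox ranged from -0.25 to 0.66 and Loxl2 from -0.15 to 0.60. Among the members the block changed no other call. A prior count of 0.5 moved no pair mean by more than its spread. CPM without TMM factors moved that of Lox from 0.04 to 0.18, more than its spread, and turned those of Loxl1 and Loxl3 to 0.13 and 0.10.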
